A study of Mus musculus with 15 samples.

Results

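Transcription factors of steroid synthesis, activators and corepressors among them, were examined in ovaries with an inactive HSD17B1, the enzyme that reduces estrone to estradiol. The 10 genes were taken by name from the 27907 genes of the table, and all 10 were found: Nr5a1, Nr5a2, Nr0b1, Nr0b2, Gata4, Gata6, Cebpa, Cebpb, Foxl2 and Foxa3. The samples were whole ovaries of 7 HSD17B1-KI and 8 WT females, all 6 months old and in estrus, with 1 mRNA library per mouse. HSD17B1-KI mice were homozygous for a Ser143Ala change in the active site of HSD17B1, made with CRISPR/Cas9, and both groups came from heterozygous breeding. The change is 1 codon, so gene counts cannot check the genotype labels, and Hsd17b1 itself averaged 11650 ± 4351 normalized counts in HSD17B1-KI (SD, n = 7) against 8829 ± 2952 in WT (SD, n = 8).

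These factors act on steroidogenic genes and on each other. NR5A1 (SF-1) and NR5A2 (LRH-1) are orphan nuclear receptors that bind the same DNA element and activate genes such as Star, Cyp11a1 and Cyp19a1. NR0B1 (DAX-1) and NR0B2 (SHP) lack the usual DNA-binding domain and act as corepressors of NR5A receptors. GATA4, GATA6 and the C/EBP proteins act in granulosa and theca cells and during luteinization, FOXL2 maintains granulosa cell identity, and FOXA3 belongs to the forkhead family best known from the liver.

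The libraries held between 26544745 and 72362981 reads on genes, with a median of 43611091. Normalized counts are these reads divided by 1 size factor per library, and a gene was called DE at an adjusted p under 0.05. Every marker of the granulosa, theca, luteal, oocyte, macrophage and oviduct lists was above 0 in each mouse. So was every marker of the other lists, adipose and erythroid among them, so this does not show which cell types were present. The summed level of 5 theca and interstitial markers was 139279 to 313389 normalized counts in HSD17B1-KI and 81939 to 154750 in WT (exact permutation test, p = 0.000777), and 86.0% of it was Aldh1a1. The study reports Aldh1a1 itself as upregulated in HSD17B1-KI ovaries. This sum is therefore not a measure of these cells alone, and its p mostly repeats the difference in that gene. The summed level of 5 granulosa markers was 60936 to 184644 in HSD17B1-KI and 69127 to 164926 in WT (exact permutation test, p = 0.160), and 77.8% of it was Inha. Oviduct epithelium markers stood highest in WT 1 and WT 8, at 222613 and 146510 normalized counts, against 138 to 21795 in the other mice. A fit with the oviduct marker level as a covariate is given with the closing observations. The share of the other cell types in the differences between genotypes was not tested, and in whole ovaries fewer cells of a type and less RNA per cell cannot be told apart.

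Per length of merged exons, Nr5a1 had the highest level of the 10 factors and Foxa3 the lowest. The mean over the 15 mice was 4796 normalized counts per kb for Nr5a1, 3698 for Gata4 and 3190 for Nr5a2. Gata4 was ahead of Nr5a2 in HSD17B1-KI (4386 and 3089) but not in WT (3096 and 3278). Cebpb followed with 1793, Cebpa with 1455 and Foxl2 with 1039 normalized counts per kb. Gata6 had 553, Nr0b1 367.5 and Nr0b2 249, and Foxa3 had 42.1 normalized counts per kb. The ranges of neighbours in this order overlapped at each step but the last, since Foxa3 was below the lowest Nr0b2 value in all mice. Nr5a1 exceeded Gata4 in 13 of 15 mice, whereas Gata4 exceeded Nr5a2, Cebpb exceeded Cebpa and Nr0b1 exceeded Nr0b2 in 10 of 15 each.

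**Figure D1:**
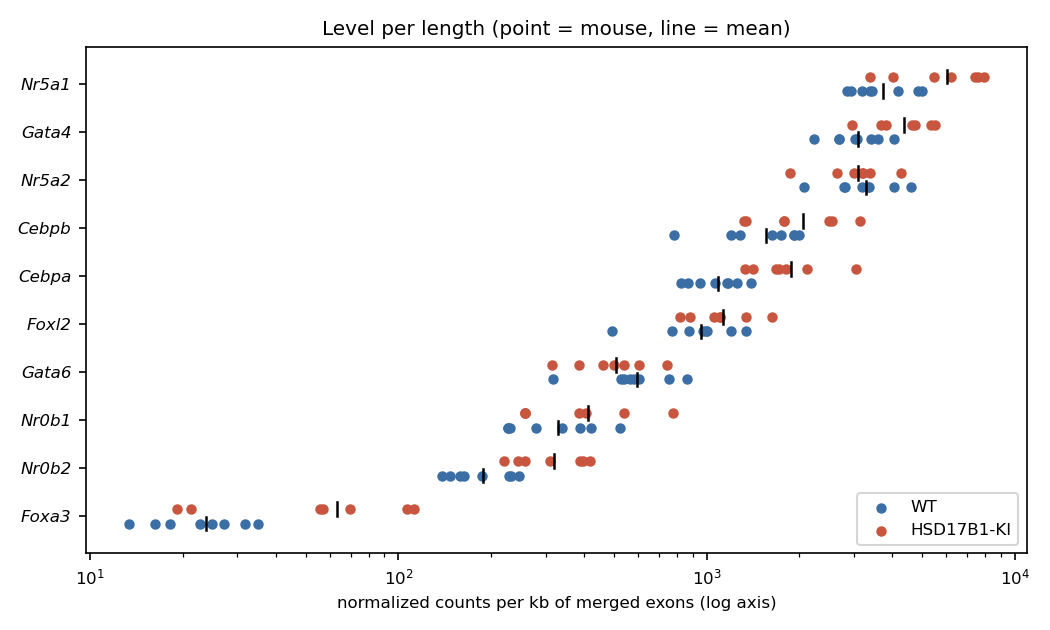
Level of each factor per kb of merged exons on a log axis, where each point is a mouse, the 2 rows of a gene are the genotypes and the black line is the mean of the group. Nr5a1, Gata4 and Nr5a2 lead with means of 4796, 3698 and 3190 normalized counts per kb over all mice, and Foxa3 is lowest with 42.1. In WT alone Nr5a2 (3278) is above Gata4 (3096).

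Between the genotypes, 8 of the 10 factors had a positive log2 fold change, and 5 stood out by unadjusted tests: Nr5a1, Nr0b2, Gata4, Cebpa and Foxa3, each higher in HSD17B1-KI. With limma-trend over all genes 0 of 10 were DE, where 0.214% of tested genes were DE (0.209% higher in HSD17B1-KI), and with edgeR also 0 of 10, where 0.232% were DE. At an unadjusted p under 0.05, limma-trend gave 5 of 10, beside 10% of all tested genes, or 5.36% in the higher direction. With DESeq2, the test the study names, the same 5 were DE, beside 2.30% of all genes in either direction and 1.59% higher in HSD17B1-KI. The 10 factors were chosen with earlier results of these data known. Their counts and median beside those of all genes are therefore a description and no test of the set. The exact permutation test of single genes also gave these 5 at p under 0.05, beside 10.1% of all tested genes, or 5.65% in the higher direction. The median log2 fold change was 0.44 for the 10 factors and -0.02 for all tested genes, of which 44.8% were positive. The groups did not overlap for 0 of the 10, beside 0.325% of all tested genes, so each of the 5 had at least 1 HSD17B1-KI mouse inside the WT range. The plot of log2 fold changes shows which intervals exclude 0.

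**Figure D2:**
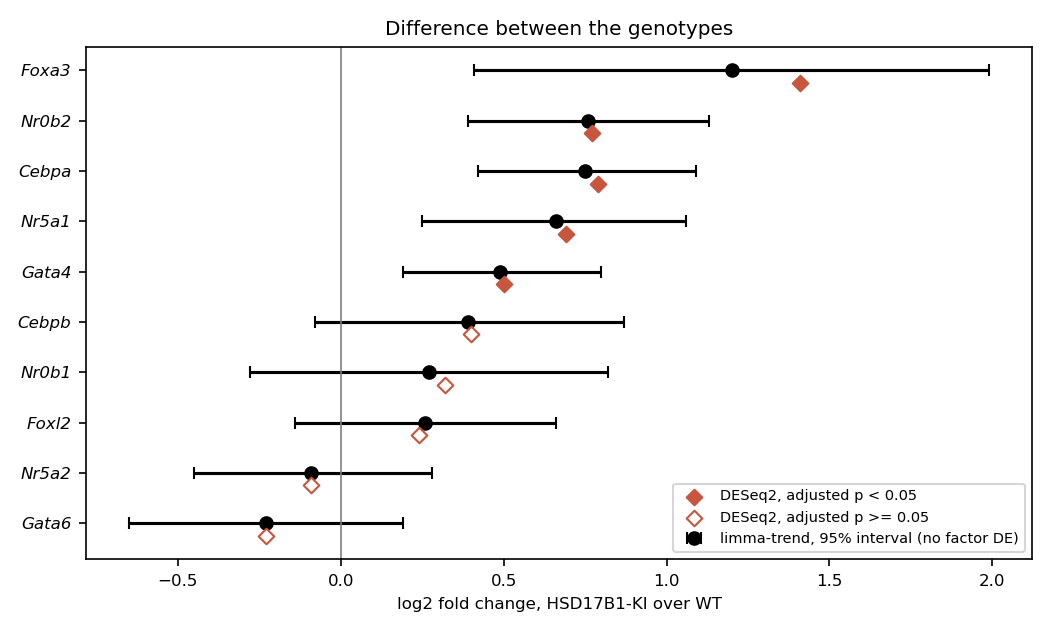
Log2 fold change of each factor, HSD17B1-KI over WT, where black points and bars are the limma-trend estimate with its 95% interval and diamonds are DESeq2, filled where its adjusted p was under 0.05. The intervals of Foxa3, Nr0b2, Cebpa, Nr5a1 and Gata4 lie above 0, from 0.19 at the lowest bound of Gata4 to 1.99 at the highest bound of Foxa3, and those of the other 5 factors include 0.

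The 250 bases before the RefSeq start site (build GRCm38.p6) are shown for Nr0b2, Cebpa and Foxa3, the 3 factors that DESeq2 called in each of 15 fits leaving out 1 mouse. Each is written 5′ to 3′ on the strand of its gene, with TATAAA in capitals, and TCAAGG too, the first 6 letters of an extended NR5A site. Nr0b2 lies on the plus strand at chr4:133553126-133553375, Cebpa on the plus strand at chr7:35119043-35119292 and Foxa3 on the minus strand at chr7:19023540-19023789.
Nr0b2: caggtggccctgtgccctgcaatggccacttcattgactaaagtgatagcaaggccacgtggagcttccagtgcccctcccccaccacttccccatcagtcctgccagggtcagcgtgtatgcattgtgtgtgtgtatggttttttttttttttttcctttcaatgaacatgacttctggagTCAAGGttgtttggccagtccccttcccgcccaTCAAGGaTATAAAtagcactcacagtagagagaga
Cebpa: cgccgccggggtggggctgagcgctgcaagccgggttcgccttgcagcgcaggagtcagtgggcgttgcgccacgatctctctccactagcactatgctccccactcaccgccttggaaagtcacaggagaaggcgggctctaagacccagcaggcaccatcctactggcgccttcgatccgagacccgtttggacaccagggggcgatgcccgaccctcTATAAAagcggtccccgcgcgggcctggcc
Foxa3: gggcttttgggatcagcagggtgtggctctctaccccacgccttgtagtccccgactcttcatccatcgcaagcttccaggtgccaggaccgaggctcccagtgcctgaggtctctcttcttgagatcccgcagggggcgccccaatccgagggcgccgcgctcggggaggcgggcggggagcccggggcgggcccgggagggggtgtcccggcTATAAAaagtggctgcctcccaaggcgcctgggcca

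Each of these 3 stretches held TATAAA on the strand of the gene, starting at position -28 in Nr0b2, -30 in Cebpa and -36 in Foxa3, and so did Nr0b1 at -32. In the windows of 300 bases (250 before and 50 from the start site), 4 of 8 windows of 7 factors had TATAAA on that strand starting between -40 and -20, as did 1.99% of 32851 RefSeq windows. On either strand and at any position, 6 of the 8 windows and 13.6% of all windows held it. TCAAGG occurred in 1 of the 8 windows, that of Nr0b2, at -68 and -35, and in 14.4% of all windows. Both motifs were picked after the letters had been read. Of the motifs picked earlier, the NR5A element AAGGTCA (4.72% of all windows), the C/EBP palindrome TTGCGCAA (0.183%) and the forkhead letters TGTTTAC or TATTTAC (6.54%) had no match in the 8 windows. The GATA letters AGATAA or TGATAA (18.6%) matched in both windows of Nr5a2, at -217, -200 and -164 in the first and at -5 in the second. All motifs were searched on both strands, a match is letters only, and Nr5a1, Gata4 and Gata6 were not matched to a window.

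Among the NR5A activators, Nr5a1 was higher in HSD17B1-KI by the exact permutation test and DESeq2, and Nr5a2 passed no test. Nr5a1 (ENSMUSG00000026751, chromosome 2 from 38692656 to 38714542, minus strand) ranged from 14423 to 33675 normalized counts in HSD17B1-KI with a median of 26368, and from 12107 to 21161 in WT with a median of 14488. HSD17B1-KI 1, 2, 3, 6 and 7 were above every WT mouse, whereas HSD17B1-KI 4 and 5, at 17089 and 14423, lay inside the WT range. The means were 25507 ± 7632 (SD, n = 7) and 15822 ± 3546 (SD, n = 8), a ratio of 1.61 and a log2 fold change of 0.66 (SE, the standard error, of 0.19, limma-trend adjusted p = 0.194, 0.0271 to 0.548 over the alternatives). The exact permutation test over mice gave p = 0.00995, and DESeq2 gave an adjusted p of 0.0271. DESeq2 called it in 7 of the 15 fits without 1 mouse and lost it without HSD17B1-KI 1, 2, 3 or 7 or without WT 1, 2, 6 or 8 (adjusted p 0.0530 to 0.112). HSD17B1-KI 4 and 5 were also the lowest of their group in granulosa markers, with 60936 and 78872 normalized counts, and WT 4 and WT 7, the WT mice with the most Nr5a1, were the highest of theirs with 164926 and 163630. Inha, a gene that these factors are known to regulate, made up 77.8% of this marker sum, so the sum is not a measure of granulosa cells alone. The antisense gene Nr5a1os overlaps Nr5a1 but had 0.102% of its counts.

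Nr5a2 (ENSMUSG00000026398, chromosome 1 from 136842571 to 136960448, minus strand) ranged from 10977 to 25204 normalized counts in HSD17B1-KI (median 18898) and from 12225 to 27061 in WT (median 19279). The groups covered nearly the same span, with the lowest mouse a HSD17B1-KI and the highest a WT. The means were 18223 ± 4326 (SD, n = 7) and 19340 ± 4590 (SD, n = 8), with a log2 fold change of -0.09 (95% interval -0.45 to 0.28, limma-trend adjusted p = 0.906). The sign is not settled, since without HSD17B1-KI 4 the log2 fold change was 0.03.

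**Figure D3:**
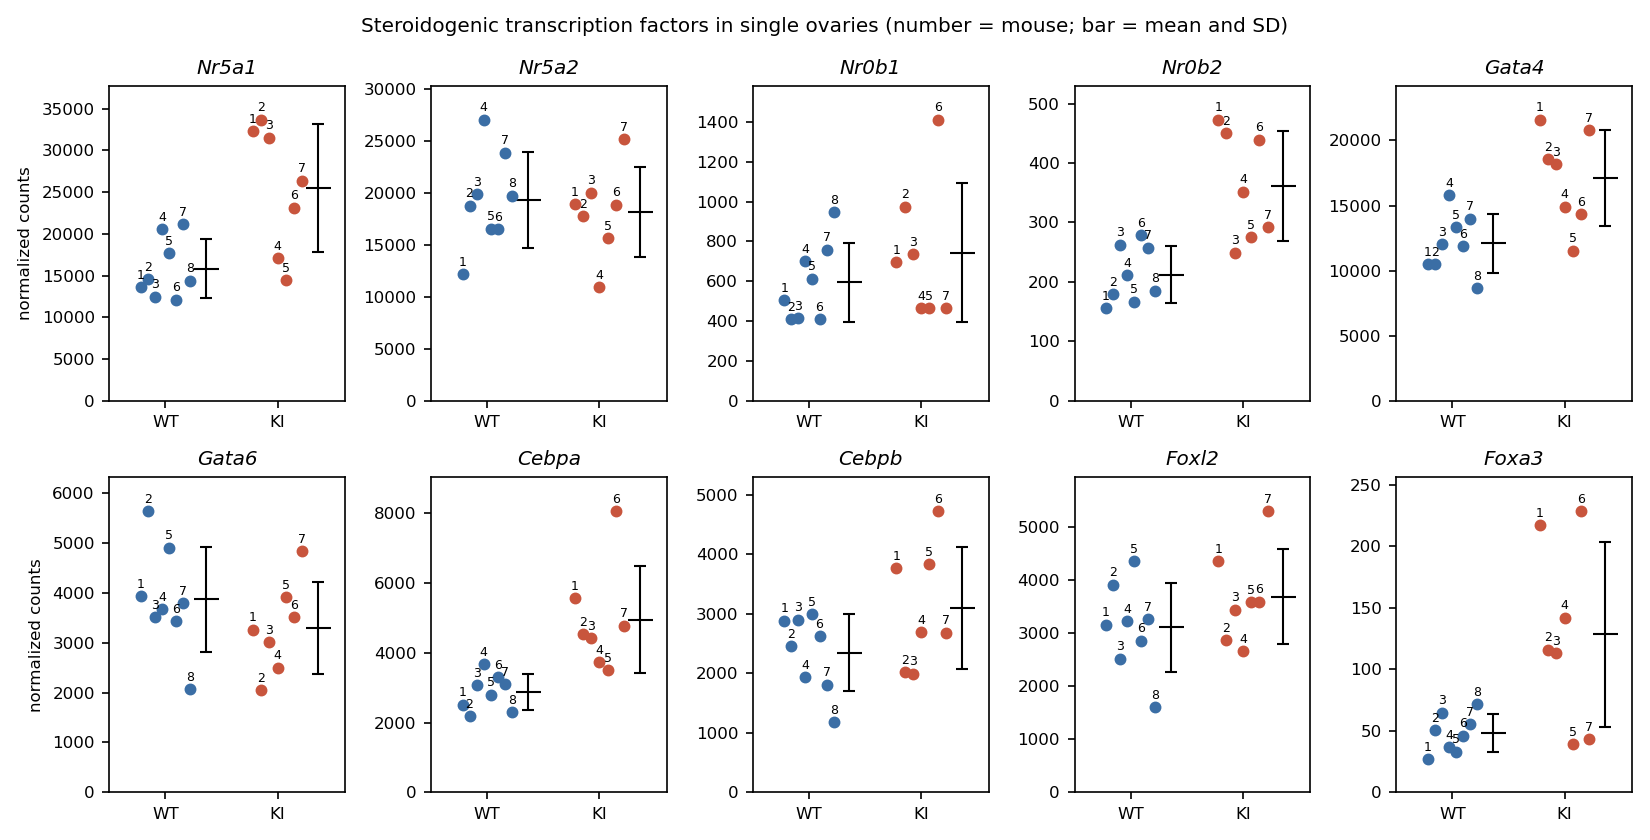
Normalized counts of the 10 factors in each ovary, with WT in blue and HSD17B1-KI in red, the number of the mouse beside its point and the mean with its SD as a black bar. For Cebpa 6 of 7 HSD17B1-KI mice and for Nr5a1, Nr0b2 and Foxa3 5 of 7 lie above every WT mouse, and for Gata4 4 of 7 do.

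Of the NR0B corepressors, Nr0b2 was higher by the exact permutation test and DESeq2, and Nr0b1 passed no test. Nr0b2 (ENSMUSG00000037583, chromosome 4 from 133553376 to 133556536, plus strand) had 249 to 473 normalized counts in HSD17B1-KI (median 352) and 156 to 279 in WT (median 198). HSD17B1-KI 3 and 5, with 249 and 276, lay below the highest WT mouse, and the other 5 were above it. The means of 362 ± 92.4 (SD, n = 7) and 212 ± 47.9 (SD, n = 8) gave a ratio of 1.70 and a log2 fold change of 0.76 (SE 0.17, limma-trend adjusted p = 0.0915, 0.00343 to 0.456 over the alternatives). The exact permutation test gave p = 0.00218, and DESeq2 an adjusted p of 0.00343 that stayed at or under 0.0214 in each of the 15 fits without 1 mouse. Each of the 7 HSD17B1-KI mice exceeded the mean of WT.

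Nr0b1 (ENSMUSG00000025056, chromosome X from 86191764 to 86195947, plus strand) had 464 to 1411 normalized counts in HSD17B1-KI (median 694.5) and 409 to 947 in WT (median 558). The spread in HSD17B1-KI came mostly from HSD17B1-KI 6, at 1411, while HSD17B1-KI 4, 5 and 7 sat together near 464. The means were 744 ± 350 (SD, n = 7) and 595 ± 197 (SD, n = 8), and the log2 fold change was 0.27 with a 95% interval of -0.28 to 0.82 (limma-trend adjusted p = 0.781), so a change of either sign was within the error.

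Gata4 was higher in HSD17B1-KI by the exact permutation test and DESeq2, and Gata6 passed no test. Gata4 (ENSMUSG00000021944, chromosome 14 from 63198922 to 63271692, minus strand) ranged from 11536 to 21583 normalized counts in HSD17B1-KI with a median of 18150, and from 8678 to 15799 in WT with a median of 11945. HSD17B1-KI 1, 2, 3 and 7 were above every WT mouse, and HSD17B1-KI 4, 5 and 6 were among the WT mice. The means were 17122 ± 3659 (SD, n = 7) and 12089 ± 2255 (SD, n = 8), a ratio of 1.42 and a log2 fold change of 0.49 (SE 0.14, limma-trend adjusted p = 0.197, 0.0455 to 0.548 over the alternatives). The exact permutation test gave p = 0.00948. The DESeq2 call, at an adjusted p of 0.0455, was kept in 5 of 15 fits, those without HSD17B1-KI 4, 5 or 6 or WT 4 or 7, and was lost in the other 10 (adjusted p 0.0554 to 0.130, without HSD17B1-KI 1, 2, 3 or 7 or WT 1, 2, 3, 5, 6 or 8).

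Gata6 (ENSMUSG00000005836, chromosome 18 from 11052064 to 11085635, plus strand) had 2049 to 4831 normalized counts in HSD17B1-KI (median 3261) and 2062 to 5633 in WT (median 3729). Its lowest mice were HSD17B1-KI 2 and WT 8, and its highest was WT 2. The means were 3296 ± 919 (SD, n = 7) and 3865 ± 1057 (SD, n = 8), with a log2 fold change of -0.23 (95% interval -0.65 to 0.19, limma-trend adjusted p = 0.752). The transcript 1010001N08Rik shares 504 bases with Gata6 on the other strand and had 19.5% of its counts.

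Cebpa (ENSMUSG00000034957, chromosome 7 from 35119293 to 35121928, plus strand) had the smallest exact permutation p of the 10 factors (p = 0.000466, where 0.000155 is the smallest p that 7 against 8 mice allow). C/EBPα is a basic leucine zipper factor that acts in granulosa cells on the way to ovulation. Its counts ran from 3501 to 8056 in HSD17B1-KI (median 4539) and from 2182 to 3670 in WT (median 2935). HSD17B1-KI 5 alone, at 3501, was not above the highest WT mouse, WT 4, and HSD17B1-KI 6 stood far above the rest. The means were 4942 ± 1533 (SD, n = 7) and 2868 ± 515 (SD, n = 8), a ratio of 1.72 and a log2 fold change of 0.75 (SE 0.16, limma-trend adjusted p = 0.0749, 0.00170 to 0.367 over the alternatives). Without HSD17B1-KI 5 limma-trend called it, at an adjusted p of 0.0303, and DESeq2 called it at 0.00170 with all mice and at or under 0.00907 in each fit without 1 mouse. The antisense gene Gm45091 overlaps Cebpa over 313 bases and is not among the genes counted.

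Cebpb (ENSMUSG00000056501, chromosome 2 from 167688915 to 167690418, plus strand), whose protein is induced by the LH surge, had 1995 to 4719 normalized counts in HSD17B1-KI (median 2688) and 1175 to 2997 in WT (median 2537). HSD17B1-KI 1, 5 and 6 were above the WT mice, and the other 4 were among them. With means of 3099 ± 1028 (SD, n = 7) and 2346 ± 648 (SD, n = 8), the log2 fold change was 0.39 (95% interval -0.08 to 0.87, limma-trend adjusted p = 0.593). It did not pass the test with DESeq2 (adjusted p = 0.431, at least 0.310 without any 1 mouse). Tmem189 overlaps Cebpb on the other strand over 908 bases, with 1166 ± 111 (SD, n = 7) and 1072 ± 65.0 normalized counts (SD, n = 8). The libraries were made with a stranded kit. Because the sources used here do not say whether counting used the strand, reads of such overlapping genes cannot be told apart in these counts.

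Foxa3, the lowest of the factors, had the largest ratio of the 10, and Foxl2 passed no test. Foxa3 (ENSMUSG00000040891, chromosome 7 from 19013284 to 19023538, minus strand) had 39.0 to 229 normalized counts in HSD17B1-KI (median 116) and 27.1 to 71.6 in WT (median 48.3). HSD17B1-KI 1, 2, 3, 4 and 6 were above every WT mouse, whereas HSD17B1-KI 5 and 7, at 39.0 and 43.4, lay below the WT mean. The means of 128.5 ± 74.95 (SD, n = 7) and 48.2 ± 15.5 (SD, n = 8) gave a ratio of 2.66 and a log2 fold change of 1.2 (SE 0.37, limma-trend adjusted p = 0.237, 0.00787 to 0.501 over the alternatives). The exact permutation test gave p = 0.0123, and DESeq2 an adjusted p of 0.00787, with a highest value of 0.0456 when 1 mouse was left out. These counts rest on 16 to 192 reads per library, fewer than for any other factor.

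Foxl2 (ENSMUSG00000050397, chromosome 9 from 98955288 to 98958543, plus strand) had 2667 to 5301 normalized counts in HSD17B1-KI (median 3590) and 1603 to 4359 in WT (median 3198). HSD17B1-KI 7 was highest and WT 8 lowest, with the other mice of both groups between them. The means of 3688 ± 898 (SD, n = 7) and 3115 ± 839 (SD, n = 8) gave a log2 fold change of 0.26 (95% interval -0.14 to 0.66, limma-trend adjusted p = 0.696). Its divergent neighbour Foxl2os, with which it shares 12 bases, averaged 8434 ± 2463 normalized counts in HSD17B1-KI (SD, n = 7) against 7588 ± 1358 in WT (SD, n = 8).

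To ask whether the factors followed the genes they regulate, each was compared across mice with Cyp17a1 (theca androgen synthesis), Star (cholesterol import into mitochondria) and Cyp19a1 (aromatase). The mice formed separate clusters in Cyp17a1, since HSD17B1-KI 4 and 5 and WT 3 and 6 had 107 to 254 normalized counts and the other 11 had 2033 to 56551. Relations with Cyp17a1 were therefore taken within those 11 mice, 5 HSD17B1-KI and 6 WT, and those with Star and Cyp19a1 over all 15. In those 11 mice the Cyp17a1 ranges of the genotypes did not overlap, so r over them includes the difference between genotypes. Over the 30 relations, 1 had an adjusted p under 0.05 for Pearson's r and 11 had an unadjusted p under 0.05 (permutation tests, Benjamini-Hochberg over the 30).

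That relation was between Nr5a1 and Cyp17a1 (r = 0.86, permutation p = 0.00087, adjusted 0.0261, rho = 0.85, permutation p = 0.00190, adjusted 0.0285, n = 11). HSD17B1-KI 1, 2 and 3 had the highest values of both genes and WT 1 and 2 low values of both, while WT 8 had 21605 Cyp17a1 with only 14418 Nr5a1. Without the 2 mice farthest from the median of Nr5a1 r was 0.80. Centred on each genotype, r was 0.56 and did not pass the test (permutation p = 0.126), and among the 6 WT mice r was 0.52. The mice left out for low Cyp17a1 also had the least Nr5a1 of their genotypes. They had 17089 and 14423 in HSD17B1-KI 4 and 5, and 12480 and 12107 in WT 3 and 6. The r values here do not cover them. When each of these 11 mice was left out in turn, r was between 0.82 and 0.97, and the adjusted p rose to between 0.0527 and 0.0660 in 3 fits, those without HSD17B1-KI 7, WT 2 or WT 4. Nr0b2, Gata4 and Cebpa had r of 0.74, 0.72 and 0.72 with Cyp17a1 (permutation, adjusted p = 0.0517 each) and passed by rank (rho 0.77, 0.78 and 0.75, permutation, adjusted p = 0.0475, 0.0475 and 0.0493). Their r became 0.23, 0.28 and 0.10 when centred on each genotype. Other factors had a centred r with Cyp17a1 as large in size as that of Nr5a1. It was -0.69 for Cebpb, -0.63 for Gata6 and 0.56 for Nr5a2 (permutation, adjusted p = 0.0844, 0.135 and 0.380). Among the 6 WT mice Nr0b1 had the largest r with Cyp17a1, 0.98, but centred on each genotype its r was 0.44 (permutation, adjusted p = 0.380). Of the HSD17B1-KI mice used, HSD17B1-KI 6 had the most Nr0b1 (1411) and the least Cyp17a1 (24106).

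The strongest relation of Cyp19a1 was with Nr5a2, which passed the test by rank and when centred on genotype but not for Pearson's r over all mice. Over 15 mice r was 0.70 (permutation, adjusted p = 0.0517) and rho 0.79 (permutation, adjusted p = 0.0207), and r was 0.72 without the 2 mice farthest from the median. Centred on each genotype r was 0.78 (permutation, adjusted p = 0.0279), with 0.79 in HSD17B1-KI and 0.78 in WT. HSD17B1-KI 7 and WT 4, with 9456 and 6444 Cyp19a1, had the most Nr5a2 of their groups, and HSD17B1-KI 4, with 585, had the least. Not all mice followed this, since HSD17B1-KI 1 had 7829 Cyp19a1 with 18964 Nr5a2 and HSD17B1-KI 3 had 1826 with 20057. The Cyp19a1 value of WT 4 stood apart from the other WT mice, of which the next had 1868. Nr5a1 and Gata4 had r of 0.63 and 0.64 with Cyp19a1 (permutation, adjusted p = 0.0517 each), and by rank Nr5a1 passed (rho 0.67, permutation, adjusted p = 0.0475) and Gata4 did not (rho 0.56, permutation, adjusted p = 0.0852). Foxl2 had r of 0.90 with Cyp19a1 in HSD17B1-KI and -0.17 in WT, and the difference between these was not tested.

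Star ran opposite to Nr5a1 and Nr0b1 within the genotypes. Centred on genotype, r with Star was -0.69 for Nr5a1 (permutation, adjusted p = 0.0304), which was -0.92 in HSD17B1-KI and -0.62 in WT, but over all mice without centring it was -0.21. For Nr0b1 the centred r was -0.71 (permutation, adjusted p = 0.0304), and -0.52 over all mice (permutation, adjusted p = 0.123). Nr5a2 also ran opposite to Star, with r of -0.59 both centred and over all mice, and did not pass the adjusted test (permutation, adjusted p = 0.102 and 0.0711). HSD17B1-KI 4 and 5 had the most Star, 73441 and 103552 normalized counts, and the least Nr5a1 of their group. The other HSD17B1-KI mice had 18934 to 28525 Star, and r within HSD17B1-KI without HSD17B1-KI 4 and 5 was not computed. Cebpb was positively related to Star (r = 0.68, rho = 0.60, permutation, adjusted p = 0.0517 and 0.0709), with 0.83 in WT and 0.29 in HSD17B1-KI. Among WT, WT 4, 7 and 8 had the least Star, 5151 to 6635 normalized counts, and also the least Cebpb.

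**Figure D4:**
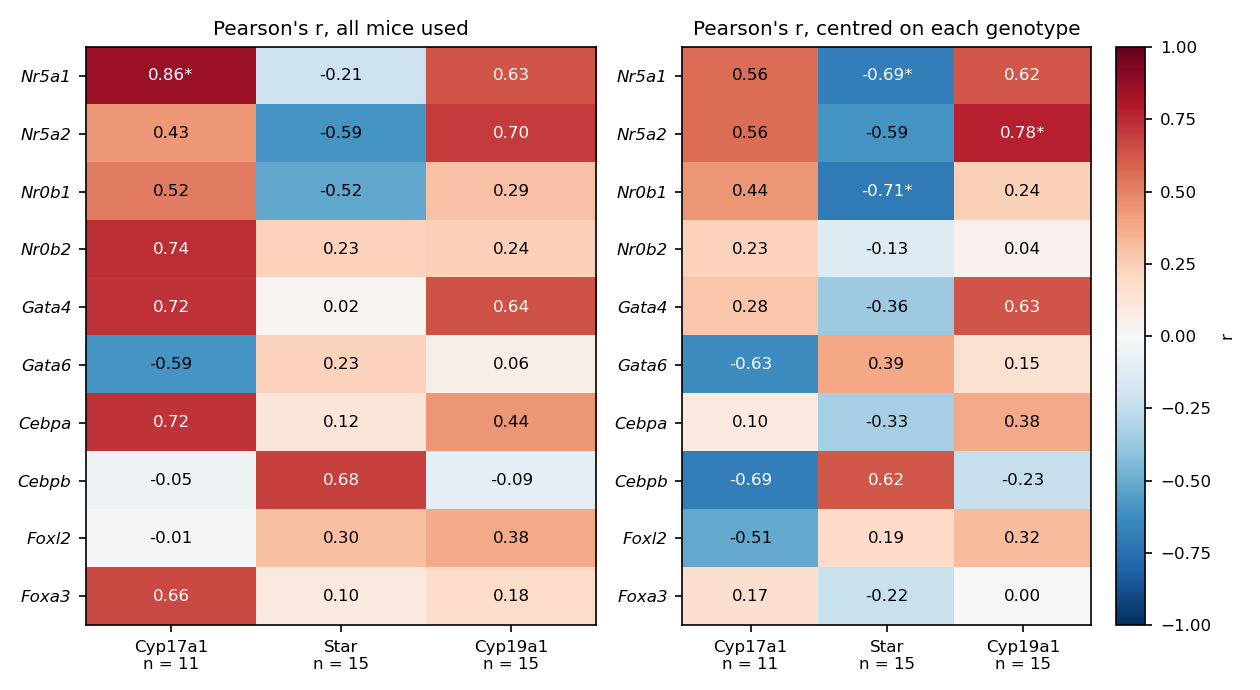
Pearson's r of each factor with Cyp17a1, Star and Cyp19a1 over the mice as they are (left) and after centring on each genotype (right), with red for positive and blue for negative values and an asterisk at an adjusted permutation p under 0.05 over the 30. Nr5a1 with Cyp17a1 (0.86) has it on the left, and Nr5a1 and Nr0b1 with Star (-0.69 and -0.71) and Nr5a2 with Cyp19a1 (0.78) have it on the right.

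Among the 45 pairs of factors, centred on genotype, 2 had an adjusted p under 0.05 for Pearson's r and 7 an unadjusted one. Gata6 and Foxl2 rose and fell together (r = 0.91, permutation p = 1e-05, the smallest that 100000 permutations can give, adjusted 0.00045, rho = 0.88, permutation, adjusted p = 0.00180). The relation was 0.85 in HSD17B1-KI, 0.95 in WT and 0.85 without the 2 mice farthest from the median. WT 8 was lowest in both genes among WT, and WT 2 and WT 5 were highest in both. Nr5a1 and Gata4 had r = 0.78 (permutation, adjusted p = 0.0293), with 0.86 in HSD17B1-KI and 0.67 in WT, but rho of 0.72 did not pass the test (permutation, adjusted p = 0.125).

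**Figure D5:**
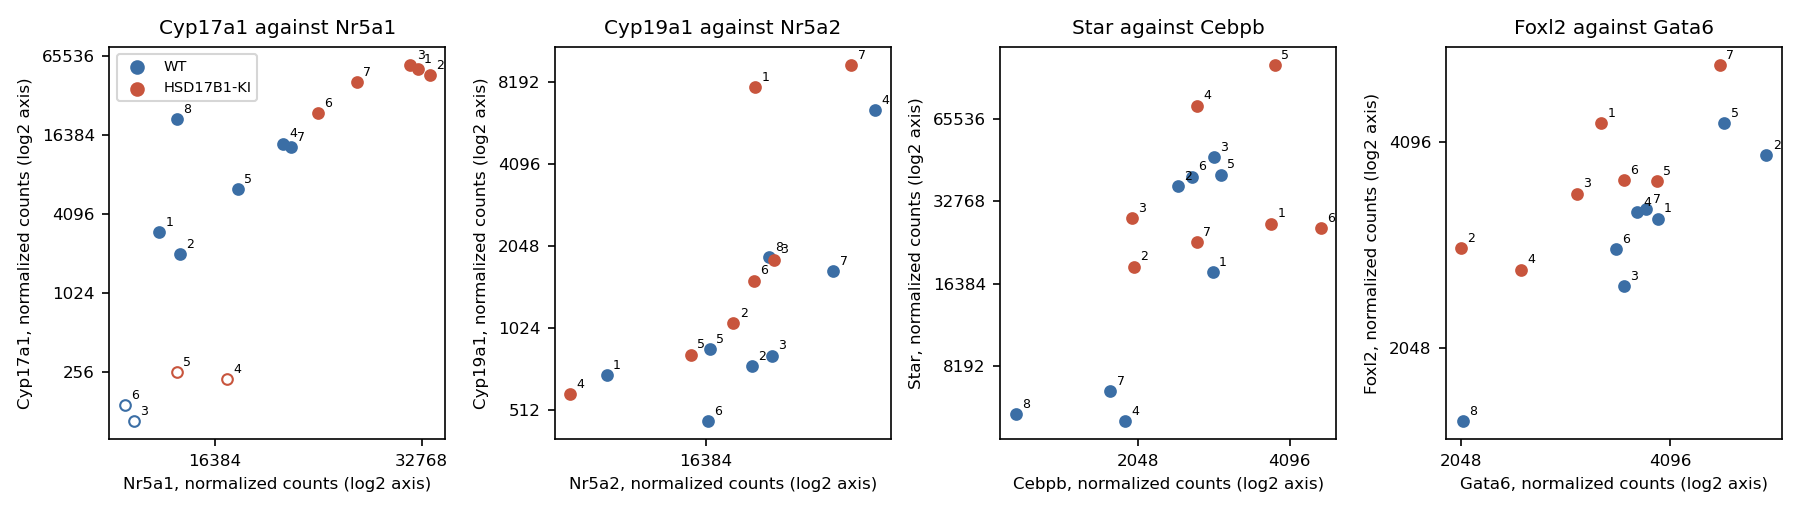
Normalized counts on log2 axes for Cyp17a1 against Nr5a1, Cyp19a1 against Nr5a2, Star against Cebpb and Foxl2 against Gata6, where each point is a mouse with its number, blue for WT and red for HSD17B1-KI. Open points are the 4 mice with 107 to 254 normalized counts of Cyp17a1, and Foxl2 and Gata6 rise together within both genotypes, with r of 0.95 in WT and 0.85 in HSD17B1-KI.

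The genes most like each factor across mice were sought among the 13864 genes that averaged 100 normalized counts or more, as Pearson's r centred on genotype over 15 mice. This ranking is a description of many correlated genes. Nr5a1 was nearest to Caskin1 and Pfas (0.94 each) and Otof (0.93), and Nr5a2 to Lbr and Cdc23 (0.92 each) and Zfp362 (0.91). Nr0b1 was nearest to E130311K13Rik (0.93), Taf8 and AI854703 (0.92 each), and Nr0b2 to Rnf220 (0.91), Spr (0.86) and Ssr2 (0.85). The nearest genes of Gata4 were Trim6 (0.90), Sema7a (0.88) and Shbg (0.83). Gata6 and Foxl2 were each other's nearest gene, and both had Smim3 among their first 3 (0.90 and 0.88), with Tmed5 (0.84) for Gata6 and Gm10762 (0.89) for Foxl2. Cebpa was nearest to Thap7 (0.90), Irf2bp2 (0.87) and Nsmce4a (0.86), Cebpb to Bloc1s4 and Slc25a4 (0.92 each) and Ppp2r3c (0.91), and Foxa3 to Mccc1 (0.86), Tagap1 (0.84) and Vcam1 (0.83).

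Of 24 genes that these factors are known to regulate, 21 had a positive log2 fold change, with a median of 0.36 beside -0.02 for all tested genes. This list too was chosen with earlier results of these data known, so its counts are a description. DE with limma-trend was 1 of the 24, beside 0.214% of all tested genes. This was Hsd3b6, a 3β-hydroxysteroid dehydrogenase (log2 fold change 1.97, SE 0.31, adjusted p = 0.0239), and it was lost without HSD17B1-KI 2 or 4 or WT 2 or 4. DESeq2 called 2 of the 24, beside 2.30% of all genes, Hsd3b6 and Insl3, the peptide hormone of theca cells (67.7 ± 35.5, SD, n = 7, against 26.8 ± 5.84, SD, n = 8, DESeq2 adjusted p = 0.00233, limma-trend adjusted p = 0.110). At an unadjusted p under 0.05, limma-trend gave 5 of the 24, 4 higher and 1 lower, beside 10% of all tested genes. The lower one was Mc2r, the ACTH receptor, with 7.86 ± 6.20 (SD, n = 7) and 19.2 ± 8.84 normalized counts (SD, n = 8), a log2 fold change of -1.48 that did not pass the adjusted test (limma-trend adjusted p = 0.248). Cyp17a1 had a log2 fold change of 1.88 with an SE of 1.55, Star of 0.99 with 0.57 and Cyp19a1 of 0.74 with 0.65, and limma-trend, edgeR and DESeq2 called 0 of the 3. Outside the 4 mice with 107 to 254 normalized counts, Cyp17a1 was 24106 to 56551 in HSD17B1-KI and 2033 to 21605 in WT. Those 4 mice were set apart by Cyp17a1 itself, so this difference was not tested. The target list shares Cyp17a1 and Insl3 with the theca markers and Inha, Inhba, Amh, Fshr and Hsd17b1 with the granulosa markers.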

How the data were processed

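Messenger RNA from whole ovaries was sequenced for 7 HSD17B1-KI and 8 WT mice, with 1 library each. The authors demultiplexed with bcl2fastq 2.20, trimmed reads, aligned them to mm10 with STAR 2.7.3 and deposited normalized signal for 27907 genes, that is counts divided by 1 size factor per library. The libraries were made with a stranded kit, but the counting program, annotation and use of strand in counting are not given in the sources used here. Whole reads were recovered for 100% of the values (within 0.001 of a read) and used for edgeR and DESeq2.

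The main test was limma-trend on log2(value + 1) of the 21525 genes averaging 2 normalized counts or more, genotype as the only term, two-sided, Benjamini-Hochberg adjusted over these genes at 0.05. The added count makes log2 fold changes of low genes smaller. Single genes were compared by exact permutation tests over all 6435 splits (two-sided, difference in mean log2). Relations used 100000 permutations, two-sided, and no r was pooled where mice were separated by a gap over 2 log2 units. Mouse numbers did not pair the groups (r of same-numbered mice -0.548 to 0.55, over 0.1 in 2 of 7), so no pairing was used. The p-values measure the spread between mice taken as independent. Litters and cages of the mice are not given in the sources used here, so their effect could not be examined.

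The factors, lists and tests were chosen with earlier results of these data known. Named were the 10 factors, Cyp17a1, Star and Cyp19a1, of each list (24 targets, 34 partners, 17 relatives) the genes DE with limma-trend or DESeq2 and the 3 with the largest change in size that averaged 10 normalized counts or more, and the 3 genes most alike to each factor. Other genes named, such as Wt1, Tcf21, Gata2 and overlapping genes, were singled out after their values were seen. Of the 12 marker lists, the summed levels of 3 are given in the report and the others with the closing observations. Alternatives were other pseudocounts, filters, scalings, array weights, edgeR, DESeq2, a replicate block and leaving out each mouse, and, added after seeing the data, oviduct marker level as a covariate and DESeq2 without each mouse. The ranges of adjusted p given for single factors over the alternatives leave out DESeq2 without each mouse, which reached lower values. The tests were tested on simulated data. Positions and lengths came from GENCODE M21 (GRCm38) and promoter windows from RefSeq (GRCm38.p6), which held 7 of the 10 factors. Used were limma 3.58.1, DESeq2 1.42.0 and edgeR 4.0.16 in R 4.3.3, and SciPy 1.17.1, pandas 2.3.3 and NumPy 2.4.6 in Python 3.11.15.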

Additional observations from a re-analysis of the deposited data

Results flagged for a closer look

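In 26 groups of 7 or 8 mice (10 factors, Cyp17a1, Star and Cyp19a1 in each genotype), 1 value was set apart from the others of its group by Dixon's criterion. Cyp19a1 in WT 4 was 6444 normalized counts, and the next WT mouse had 1868, a gap of 0.766 of the range against a critical value of 0.526. Chance flags about 1 in 20 groups. WT 4 also had the most Nr5a2 of the 15 mice, with 27061 normalized counts, and the highest granulosa marker level among WT.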

How the results depend on the processing

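limma-trend gave 46 DE genes, 28 with no filter on low values, 28 with quantile normalization, 125 with array weights, 456 with DESeq2 and 0 with the replicate block (mouse numbers do not pair the groups), and 6 to 139 without 1 mouse, the ends being HSD17B1-KI 2 and 5. With DESeq2 without 1 mouse the number was 270 (HSD17B1-KI 2), 303 (WT 1) and up to 674 (HSD17B1-KI 5). Of the 10 factors, none was DE with limma-trend, 1 (Cebpa) with array weights, 5 with DESeq2, 0 to 1 without 1 mouse and 3 to 5 with DESeq2 without 1 mouse. Of the list genes 1 was DE, 3 with DESeq2, 0 with the replicate block, 0 to 1 without 1 mouse and 3 to 5 with DESeq2 without 1 mouse. The log2 fold change of Nr5a2 spanned -0.18 (WT 1 left out) to 0.03 (HSD17B1-KI 4 left out), and those of the other 9 factors kept their sign under all alternatives run. The exact permutation test gave 5 factors under 0.05 in all 15 fits without 1 mouse, and these were the same 5. Of the 30 relations, 1 passed, against 6 with Spearman's rho, 3 centred on genotype, 0 within HSD17B1-KI, 0 within WT, 9 without the 2 mice farthest from the median, 8 with upper quartile scaling and 0 to 7 without 1 mouse, where 0 was reached without HSD17B1-KI 7, WT 2 or WT 4 and 7 without WT 8. With the oviduct marker level as a covariate 38 genes and no factor were DE. The cause of these shifts was not tested. Foxa3, at 16 to 192 reads per library, is the least precise of the factors.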

Other observations

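Coregulators and partner factors of the steroidogenic programme did not pass the adjusted tests. Of the 34 partners 33 were tested, with a median log2 fold change of -0.01, and none was DE with limma-trend, edgeR or DESeq2, while 3 had an unadjusted limma-trend p under 0.05, a share near the 10% of all tested genes. Their values are given as a description. Wt1, the Wilms tumour factor of immature granulosa and surface cells, averaged 4711 ± 490 normalized counts in HSD17B1-KI (SD, n = 7) against 5846 ± 966 in WT (SD, n = 8), with a log2 fold change of -0.30 (limma-trend adjusted p = 0.263). Nr4a3, an orphan receptor induced by gonadotropins, had a log2 fold change of -0.44 (limma-trend adjusted p = 0.425) and Tcf21, a stromal factor, of 0.32 (limma-trend adjusted p = 0.211). Of the partners that averaged 10 normalized counts or more, the log2 fold changes largest in size were those of Runx2 (-1.05, SE 0.78) and Sox9 (-0.58, SE 0.34), and neither passed the test.

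Among 16 tested relatives of the factors, 1 was DE with DESeq2 (2.30% of all genes) and 0 with limma-trend (0.214%) or edgeR (0.232%), with 2 at an unadjusted limma-trend p under 0.05 (10%) and a median log2 fold change of 0.01. Gata5, a GATA gene of surface and other epithelia, averaged 25.9 ± 5.45 normalized counts in HSD17B1-KI (SD, n = 7) against 55.8 ± 24.9 in WT (SD, n = 8). The ranges, 16.3 to 31.9 and 33.0 to 93.5, did not overlap, as for 0.325% of all tested genes (exact permutation test, p = 0.000777, DESeq2 adjusted p = 0.00819, limma-trend adjusted p = 0.1395). The direction was opposite to that of Gata4. Gata2 had a log2 fold change of -0.36 (limma-trend adjusted p = 0.403), Gata1 of 0.46 with an SE of 0.23 and Foxa2 of -0.95 with an SE of 1.59. Surface epithelium markers summed to 5527 to 9062 normalized counts in HSD17B1-KI and 7001 to 18650 in WT (exact permutation test, p = 0.107), and their part in the Gata5 values was not tested.

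The summed levels of the other marker lists did not pass an exact permutation test at 0.05. The difference in mean log2, HSD17B1-KI minus WT, was 0.46 for luteal cells, 0.22 for erythroid cells, 0.09 for macrophages, 0.08 for oocytes and 0.02 for endothelium, and -0.12 for stroma, -0.32 for smooth muscle, -0.64 for adipose tissue and -1.76 for oviduct epithelium.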
